A study of Ovis aries with 23 samples.

Results

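The maturation of the uninjured ventricle was examined by setting sham-operated adolescent sheep against sham-operated sheep fetuses. The samples were chosen by title. Adolescent sham replicates 2 and 3 and fetal sham replicates 1, 2 and 3 gave 5 of the 23 arrays analysed here. Fetuses were at 105 days of gestation and adolescents were 6 months old. Sham animals had the operation without the tying of a coronary artery branch, and the time at which their tissue was taken is not stated separately. Ligated hearts of both ages gave infarct, border and remote samples 3 days after surgery. Their remote muscle, 3 arrays per age, served here as another measurement of the age difference. Its group means share no array with the sham groups.

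The sheep heart grows before birth largely by division of its muscle cells, which then leave the cell cycle and enlarge. The fetal heart runs mainly on glucose and lactate at low oxygen tension, and fatty acids become its main fuel after birth. Thyroid hormone and cortisol rise towards birth and drive much of this change, while IGF2, a growth factor of fetal life, declines. Fetal blood carries a fetal haemoglobin, some of its red cells still hold RNA, and the fetal liver makes blood cells.

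RNA from ventricular tissue, with RNA integrity numbers of 7.6 to 9.5, was hybridised with 1 dye, Cy3, to sheep arrays that carry 15008 distinct probes. A level here is the log2 signal of a probe minus the 75th percentile of log2 signal on its array, so that 0 stands for that percentile. Testing was limited to the 12454 probes that stood well above background on 2 or more arrays of at least 1 group. Names could be given to 1761 probes standing for 1075 names, and 897 of these genes were tested, each by its brightest tested probe. Calls below are at a Benjamini-Hochberg adjusted p of 0.05 from limma, fitted to all 23 arrays with the adjustment over all tested probes. Whether replicates came from separate animals is not stated, so the p-values rest on a spread among samples that could be technical. The 75th percentile of signal was 129 to 246 intensity units on the adolescent sham arrays and 567 to 773 on the fetal sham arrays, and 61.0 to 69.2% against 75.1 to 83.8% of probes were well above background. Correlations of the 12454 levels were 0.970 between the adolescent arrays, 0.969 to 0.976 among the fetal arrays and 0.913 to 0.935 between the ages, as a description. Arrays of 1 replicate number shared a slide, where each group had a fixed position, so position and age cannot be told apart.

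The probes behind the main results are shown because each is the sequence whose signal was compared. They are 60 bases long, printed 5′ to 3′ as the deposited scanner files give them, for 3 cell cycle genes, a growth factor, a tubulin, a hormone receptor, a haemoglobin chain and the chaperone of its partner chain. No genome position is given for them in the files used here. The IGF2 probe printed is the dimmer of 2 tested, and the others are the probes that represent their genes.
CDK1: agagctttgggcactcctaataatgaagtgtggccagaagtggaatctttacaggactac
CCNA2: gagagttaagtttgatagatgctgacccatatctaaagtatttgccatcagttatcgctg
TYMS: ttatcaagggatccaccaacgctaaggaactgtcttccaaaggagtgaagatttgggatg
IGF2: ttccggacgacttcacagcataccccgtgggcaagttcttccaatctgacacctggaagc
TUBA4A: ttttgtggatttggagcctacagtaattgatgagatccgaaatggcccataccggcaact
THRB: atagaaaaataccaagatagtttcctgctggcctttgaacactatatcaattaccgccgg
HBB: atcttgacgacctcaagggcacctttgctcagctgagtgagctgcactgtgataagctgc
AHSP: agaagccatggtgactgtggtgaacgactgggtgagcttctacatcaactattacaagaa

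A pair of related genes, SLC25A4 and SLC25A5, code for adenine nucleotide translocases, which exchange ATP for ADP across the inner mitochondrial membrane. Their probes are shown because the genes differed between the ages in opposite directions. The last 29 bases of the SLC25A4 probe and the first 29 of the SLC25A5 probe align, with 19 bases the same and 10 different, and the capitals mark the 10 that differ.
SLC25A4: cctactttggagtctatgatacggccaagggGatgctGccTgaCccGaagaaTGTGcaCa
SLC25A5: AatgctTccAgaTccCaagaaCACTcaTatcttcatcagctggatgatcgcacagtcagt

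Liver transcripts were highest on fetal sham 1. AHSG, the fetal plasma protein fetuin-A, read 7.28, 0.23 and 2.51 on fetal sham 1, 2 and 3, and −6.21 and −5.75 on adolescent sham 2 and 3. ALB, serum albumin, read 3.80, −3.01 and 0.04 against −4.55 and −4.46. Fetal sham 1 was the highest and fetal sham 2 the lowest of the 3 in 11 of 12 measured liver markers, all but G6PC1. Summed on the linear scale, where 1 is the 75th percentile of the array, the 12 markers came to 199 on fetal sham 1, 5.38 on fetal sham 2, 12.3 on fetal sham 3, 2.63 and 2.75 on the adolescent sham arrays and 3.54 to 4.68 on the fetal remote arrays. The sum was 4.86 to 9.45 on the fetal border and infarct arrays and 2.82 to 6.96 on the adolescent remote arrays. By the sum fetal sham 2 lay within their range and fetal sham 1 and 3 above it. AHSG did not follow the sum, as its 0.23 on fetal sham 2 lay above every infarct, border and remote array. The highest of those was −3.33, on fetal infarct 2. APOA1, at 1.43 on fetal sham 2 and 1.29 to 1.65 on the fetal remote arrays, made up much of the sum there. On the adolescent sham arrays 8 of the 12, AHSG, ALB, SERPINA1 and TTR among them, were not well above background on either array. On fetal sham 1, 30 probes lay above fetal sham 2 by more than 4 on the log2 scale, 29 of them with fetal sham 3 also above fetal sham 2. Of these 30, 9 were named, 8 of them liver marker probes. Only 4 probes differed by as much the other way.

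Of the 12 liver markers 5 fell from fetal to adolescent sham, none rose, and the median was −1.56, or −1.44 with members below background set at their bounds. Over all 897 named genes 15.9% were called lower and 15.9% higher. The fall was at least 316-fold for AHSG (limma adjusted p = 0.000207) and at least 24.3-fold for ALB (0.00848). SERPINA1, an antiprotease of plasma, was at least 14.0-fold lower and TTR, a thyroid hormone carrier, at least 10.2-fold lower (adjusted p = 0.0339 and 0.0452). SERPINC1, antithrombin, was at least 1.83-fold lower (adjusted p = 0.0108). Without fetal sham 1 the log2 difference was −7.35 for AHSG (adjusted p = 0.000433), −3.02 for ALB (0.0290) and −1.15 for SERPINC1 (0.0498), and the calls of SERPINA1 (−2.56, 0.154) and TTR (−2.18, 0.206) ended. Without fetal sham 1 and 3 together AHSG was the 1 liver marker still called, at −6.21 (adjusted p = 0.0109), and ALB stood at −1.49 (0.346). Without adolescent sham 3 the calls of ALB (0.0533), SERPINA1 (0.128), SERPINC1 (0.0951) and TTR (0.162) ended, and those of SERPINA1 (0.120) and TTR (0.137) without adolescent sham 2. TTR also ended without fetal sham 3 (0.0783) and with the slide as a block (0.0647). In remote muscle the age difference was 1.89 for AHSG (adjusted p = 0.304) and 0.60 for ALB (0.730). In ventricular tissue taken whole, fewer cells of a type and less RNA per cell cannot be told apart, here and below.

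**Figure D1:**
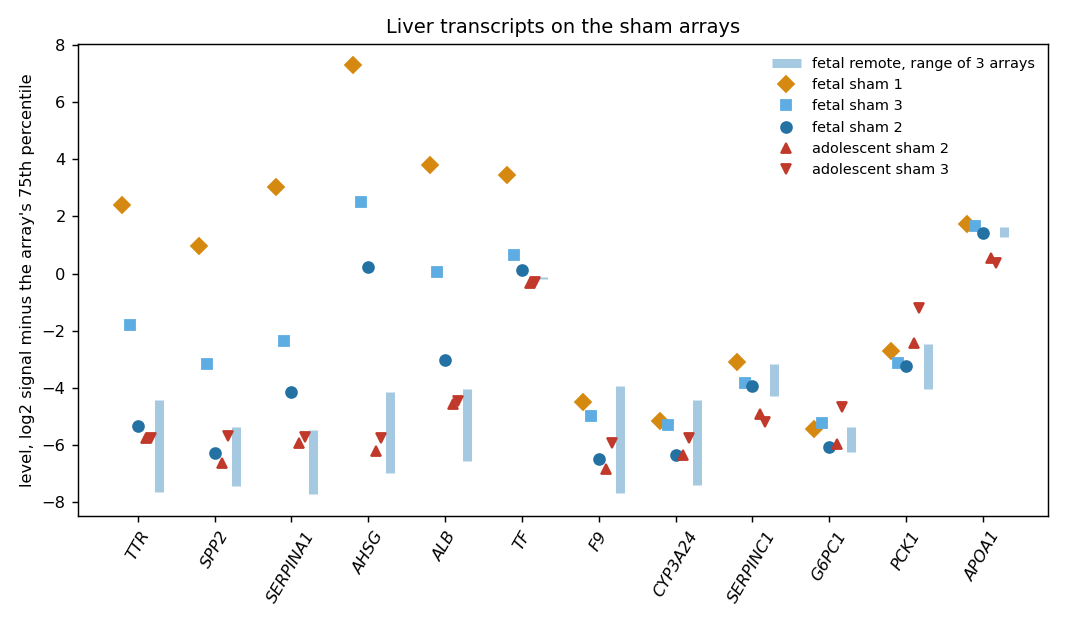
Levels of the 12 measured liver markers (x axis) as log2 signal minus the 75th percentile of each array (y axis), with 1 mark per sham array and a bar for the range of the 3 fetal remote arrays. Fetal sham 1 stands at 7.28 for AHSG and 3.80 for ALB, above fetal sham 3 and fetal sham 2, and the adolescent sham arrays lie at −5.75 or below for AHSG.

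Over all probes 3727 of 12454 were called between the shams, 29.9% of those tested, with 1888 higher (15.2%) and 1839 lower in adolescent sham and a median difference of 0.07. Of these, 2408 differed by over 2-fold and 3303 (88.6%) had no name. Named genes were called higher in 143 cases of 897 (15.9%) and lower in another 143 (15.9%), with a median difference of 0.17, and the counts of each gene list below stand against these shares. All 286 called genes had 1 sign on slides 2 and 3, and 285 had no overlap between the groups. The slide differences use the same arrays as the calls, so the shared sign is no separate support for them. Of all 12454 tested probes, called or not, 6869 had no overlap, so the lack of overlap adds little to the calls. Of 133 called genes with several tested probes 95 had every probe called the same way, 9 had a probe of opposite sign and none had probes called in opposite directions. Without adolescent sham 3 the count fell to 2086 probes. With another background correction (normexp on the mean and local background signals) it was 90, and with the brightness of each array as a covariate 503. Of 118 called genes that the naming rule took and that are reported here, 57 kept their call without each of the 5 arrays in turn, 11 kept it with normexp and 28 with the brightness covariate. ALDH1A1, CD3E, EEF1A1, HBB, HBBF, IGF2, IGFBP2, OVAR-DRB1 and TUBA4A kept it in every setting in which they were measured. The other 61 lost their call without at least 1 array, and for those described below the arrays and the adjusted p without them are given beside the gene.

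TUBA4A, an alpha-tubulin of microtubules, had the smallest adjusted p of the named genes that rose. It read 2.82 and 3.19 on adolescent sham 2 and 3 and −1.44, −1.36 and −1.94 on fetal sham 1, 2 and 3. The groups lay apart by 4.59 ± 0.31 (SE) on the log2 scale, a 24.0-fold rise (limma adjusted p = 6.98e-08). ITGB6, the beta-6 integrin chain, read 0.19 and 0.59 against −4.63, −5.73 and −5.72, 53.9-fold higher (5.75 ± 0.63, adjusted p = 5.89e-06). ACSS2, which makes acetyl-CoA from acetate, rose (3.33 ± 0.41, adjusted p = 2.24e-05). ALDH1A1, which oxidises retinaldehyde to retinoic acid, read 5.0 and 3.74 against 0.06, 1.98 and 0.44 and was 11.7-fold higher (3.55 ± 0.56, adjusted p = 0.000186). SAA3, an acute phase serum amyloid A, was 29.3-fold higher (4.87 ± 1.06, adjusted p = 0.00237). EM4e was not above background on any fetal sham array and was above it on 1 of 2 adolescent arrays, at least 4.01-fold higher (adjusted p = 0.000186).

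**Figure D2:**
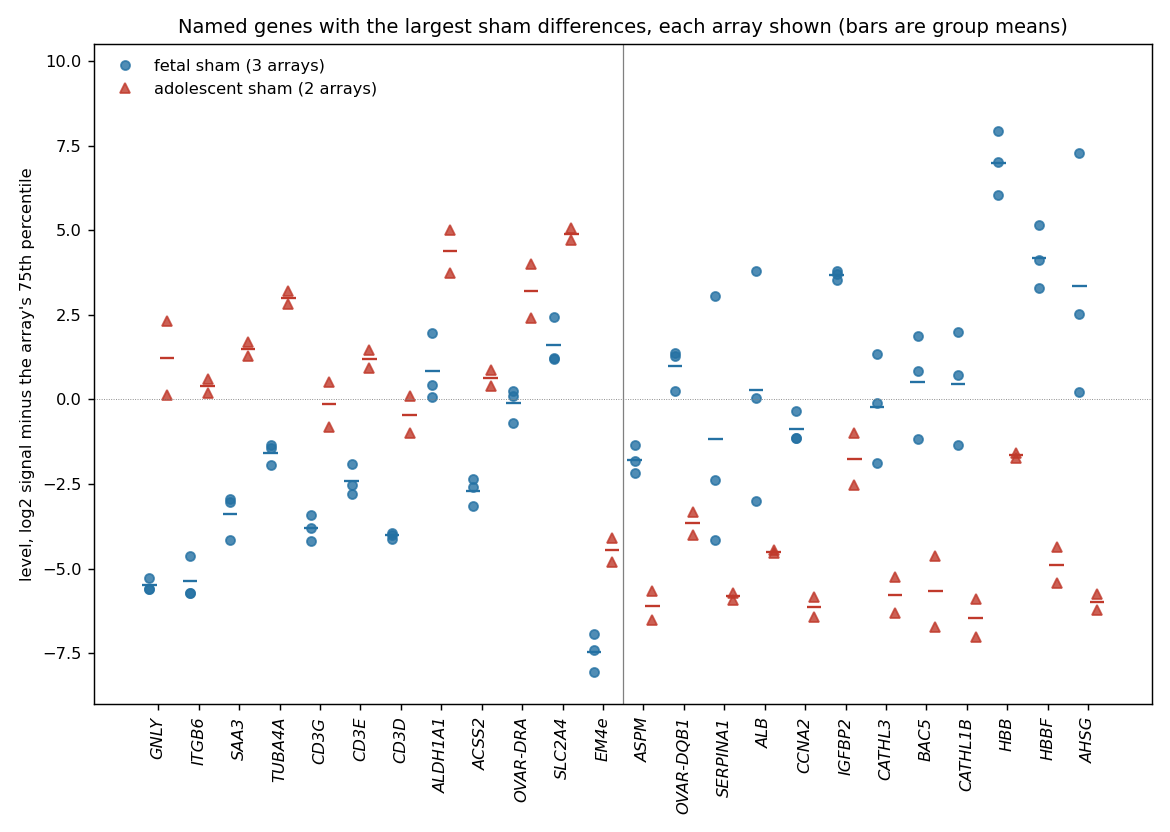
Levels on each sham array (y axis, log2 signal minus the 75th percentile of the array) for the 12 named genes that rose most and the 12 that fell most (x axis), with bars at group means. The 24 were chosen among called genes without overlap of the groups, and AHSG spreads on the fetal side from 0.23 to 7.28.

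Genes of cell division fell together. Of 15 measured members of the cell cycle list 11 fell, none rose, and the median was −1.49. CDK1, the kinase that starts mitosis, read −4.16 and −3.70 on adolescent sham 2 and 3, 1 of them above background, and −0.54, −0.54 and −0.01 on the fetal sham arrays, 11.9-fold lower (−3.57 ± 0.40, limma adjusted p = 7.77e-06). CCNA2, cyclin A2, read −6.44 and −5.84 against −1.13, −1.15 and −0.36. It was above background on neither adolescent array and at least 17-fold lower (adjusted p = 4.95e-07). The adolescent values of both genes lay far below every fetal value.

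TYMS, which makes thymidylate for DNA, read −5.49 and −5.96 against −1.87, −2.03 and −1.37, at least 8.23-fold lower (adjusted p = 6.68e-07). CCNB1, cyclin B1, was 8.96-fold lower (−3.16 ± 0.41, adjusted p = 3.19e-05), and CDK2, a kinase of DNA replication, 3.40-fold lower (−1.77 ± 0.21, adjusted p = 1.56e-05). ASPM, a protein of the mitotic spindle poles outside the list, was at least 9.06-fold lower (adjusted p = 9.60e-05), with the sign turned to 0.073 under normexp. The calls of CDK1, CCNA2, TYMS, CCNB1 and CDK2 ended under normexp, and that of CCNB1 also with the brightness covariate. Over all settings run the difference shrank as far as −0.66 for CDK1, −0.68 for CCNA2 and −0.23 for TYMS. The remaining called members fell by 0.98 to 1.58. CDKN1C, a cyclin-dependent kinase inhibitor, read 4.11 and 3.32 against 4.53, 3.82 and 3.69 and was not called (−0.30 ± 0.38). Leaving out 1 array at a time left 9 to 11 of the 15 lower.

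Within the insulin-like growth factor system the fetal ligand and its binding protein fell, and no receptor was called lower. IGF2 read 4.23 and 4.01 on the adolescent sham arrays and 7.68, 7.51 and 7.14 on the fetal sham arrays, 10-fold lower (−3.33 ± 0.33, limma adjusted p = 2.55e-06). The dimmer IGF2 probe, printed above, differed by −4.14. IGFBP2, which binds both ligands in plasma and tissue, read −2.54 and −0.99 against 3.78, 3.71 and 3.53, 43.5-fold lower (−5.44 ± 0.54, adjusted p = 2.17e-06). IGFBP4 fell by 1.11 (adjusted p = 0.00666). IGF1, the ligand of postnatal growth, read −0.47 and −0.39 against −1.20, −0.58 and −2.03 and was not called (0.84 ± 0.56, adjusted p = 0.278). IGF1R, its receptor, differed by 1.20 ± 0.47 (adjusted p = 0.0599), and with the slide as a block by 1.24 (0.0323). INSR, the insulin receptor, rose by 1.13 (adjusted p = 0.0146), a call that ended without adolescent sham 2 (0.162) or fetal sham 2 (0.0644). IGF2R, the receptor that clears IGF2, stood at −0.80 ± 0.48 (adjusted p = 0.220). Of the 12 members 1 rose and 3 fell, with a median of 0.42. Imprinted genes other than IGF2, namely IGF2R, MEG3 and CDKN1C, were not called.

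Glucose handling changed in both directions, 7 of 21 members higher and 4 lower with a median of 0.40. SLC2A4, the insulin-responsive glucose transporter GLUT4, read 4.71 and 5.07 on the adolescent sham arrays and 2.43, 1.19 and 1.21 on the fetal ones, 9.72-fold higher (3.28 ± 0.76, limma adjusted p = 0.00353). SLC2A3, the high-affinity transporter GLUT3, read 3.03 and 3.07 against 5.69, 4.22 and 5.27, 4.02-fold lower (−2.01 ± 0.54, adjusted p = 0.00976). The SLC2A3 call ended without adolescent sham 2 (0.0523) or 3 (0.0586). SLC2A1, the basal transporter GLUT1, lay lower on both adolescent arrays at −3.99 and −3.80, against −1.05, −3.26 and −2.73, and was not called (adjusted p = 0.0835).

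LDHA, the lactate dehydrogenase chain that favours lactate formation, fell 5.70-fold, from 3.59, 3.60 and 2.75 to 0.96 and 0.64 (−2.51 ± 0.40, adjusted p = 0.000207). PFKM, the muscle phosphofructokinase, rose by 1.82 ± 0.46 (adjusted p = 0.00601) and ALDOA, aldolase A, by 0.94 ± 0.22 (0.00413). Both ended without adolescent sham 2 (0.0652 and 0.0579), and ALDOA stood at 0.06 in the authors' deposited values (0.837). In the glycolysis list only 2 of the 11 calls were left without adolescent sham 2, and 7 with quantile normalization. Members called lower numbered 2 without adolescent sham 3 or fetal sham 1.

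In the list of fatty acid uptake and oxidation 3 of 10 members rose and none fell, with a median of 0.37, and without adolescent sham 3 none was called. LPL, which frees fatty acids from circulating fat, read 4.45 and 4.46 against 2.59, 1.28 and 1.84, 5.86-fold higher (2.55 ± 0.68, limma adjusted p = 0.00887). PPARA, the nuclear receptor that governs fatty acid oxidation, rose 2.19-fold (1.13 ± 0.29, adjusted p = 0.00754). Without adolescent sham 3 their adjusted p was 0.0578 and 0.0552. CPT1B, the muscle form of the enzyme that admits fatty acids to mitochondria, read 3.46 and 2.97 against 2.72, 2.00 and 2.30 (0.87 ± 0.42, adjusted p = 0.125). PPARGC1A, a coactivator of mitochondrial genes, stood at −0.34 ± 0.84 (0.794) with the groups overlapping. SLC25A20, the carrier that takes acylcarnitines into mitochondria, rose by 0.65 (adjusted p = 0.0482), which ended without adolescent sham 2 (0.187) or 3 (0.124) or fetal sham 1 (0.0673) or 2 (0.177). LPL is also an adipocyte marker. The 10 measured adipocyte markers, LPL among them, summed to 23.2 and 23.5 on the adolescent sham arrays and 3.80 to 7.44 on the fetal ones. LPL made up most of the sum on each of these arrays, so the sums largely restate its level. Of the 10 markers LPL alone was called. PLIN1, a fat droplet protein, read −2.27 and −1.40 against −2.51, −2.73 and −2.39 (0.71, adjusted p = 0.0826).

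The mitochondrial list held 8 measured genes, of which 4 rose and 2 fell, with a median of 0.87. These counts were 2 and 1 without adolescent sham 3. SLC25A4, the translocase of heart and muscle, read 9.0 and 9.19 against 7.89, 7.74 and 7.54, 2.58-fold higher (1.37 ± 0.37, limma adjusted p = 0.00959). SLC25A5, the translocase of dividing cells, read −0.28 and 0.01 against 1.73, 1.58 and 1.69, 3.47-fold lower (−1.80 ± 0.31, adjusted p = 0.000414). SLC25A6, the remaining member of the family on the array, read 3.52 and 3.25 against 4.27, 4.22 and 4.26, 1.82-fold lower (−0.87 ± 0.24, adjusted p = 0.0104). The 3 genes are members of 1 family, and whether a probe takes up signal of another member was not tested. The fall of SLC25A5 was called without each array in turn and also when quantile-normalized (−1.84) or taken from the deposited table (−1.6). The rise of SLC25A4 was 0.45 after quantile normalization (0.373) and 0.05 for the authors' deposited values (0.930), and its call ended without adolescent sham 3 (0.0792), as did that of SLC25A6 (0.111). ATP5PO and ATP5MC1, subunits of ATP synthase, rose by 1.28 ± 0.27 and 1.14 ± 0.24 (limma adjusted p = 0.00188 and 0.00163). The ATP5PO call ended in the deposited values (0.37, adjusted p = 0.144). That of ATP5MC1 ended with quantile normalization (0.21, adjusted p = 0.426) and in the deposited values, where the sign turned to −0.11.

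**Figure D3:**
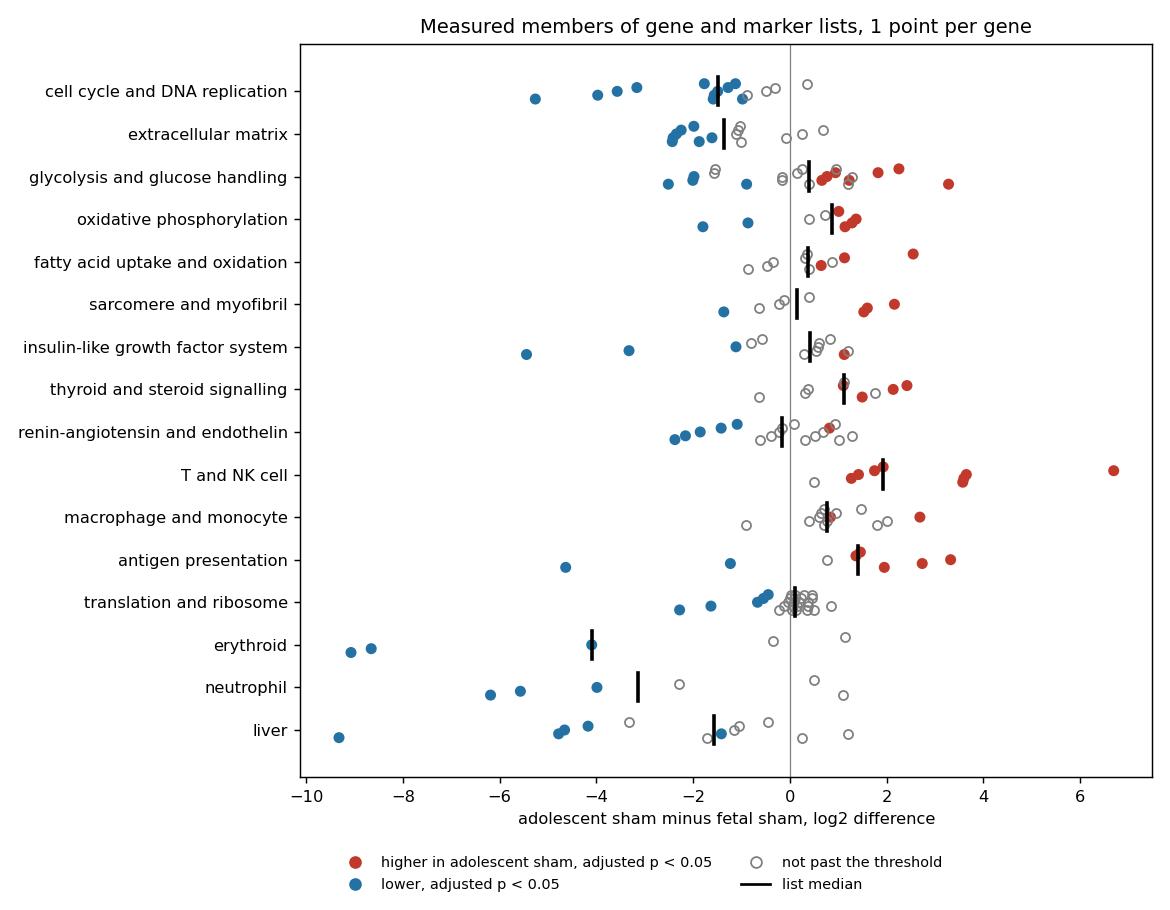
Log2 differences between adolescent and fetal sham (x axis) for each measured member of 16 gene and marker lists (y axis), filled where the adjusted p was under 0.05, with a bar at each list median. The cell cycle list has its median at −1.49 with 11 of 15 members called lower, and the T and NK cell list at 1.93 with 8 of 9 called higher.

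For the contractile apparatus 8 genes were measured, of which 3 rose and 1 fell, with a median of 0.14. Without adolescent sham 3 these counts were 1 and 0, and the fall was also not called without fetal sham 3. MYH7, the slow myosin heavy chain that dominates the ventricle of large mammals, read 5.72 and 5.06 against 3.41, 3.50 and 2.78, 4.47-fold higher (2.16 ± 0.73, limma adjusted p = 0.032). That call ended without adolescent sham 2 (0.169) or 3 (0.0802) and without fetal sham 1 (0.0541) or 3 (0.0932). TPM1, tropomyosin of the thin filament, read 9.17 and 9.23 against 7.53, 7.77 and 7.71 and rose by 1.53 ± 0.36 (adjusted p = 0.00425), against 0.59 after quantile normalization (0.232) and 0.27 in the authors' deposited table (0.608). CRYAB, a small heat shock protein that binds desmin and titin, rose by 1.60 ± 0.40 (adjusted p = 0.00633), and its call ended without adolescent sham 3 (0.0673) and with quantile normalization (0.106). MB, myoglobin, read 8.82 and 8.90 against 7.53, 7.31 and 7.28 and was not called (1.49 ± 0.67, adjusted p = 0.102), although the groups did not overlap. CKB, the brain form of creatine kinase, rose 2.52-fold (1.33 ± 0.26, adjusted p = 0.00114). CAPN3, a muscle calpain, fell by 1.36 (adjusted p = 0.0242), a call that ended without adolescent sham 2 (0.153) or 3 (0.0586) or fetal sham 3 (0.079). ATP1B1, the beta chain of the sodium pump, rose by 1.12 (adjusted p = 0.00629), which ended without adolescent sham 2 (0.055). No probe was named for MYH6, NPPA, NPPB, TNNI1, TNNI3, ATP2A2, PLN, ACTC1, ACTA1, PDK4 or UCP2, and THRA was not tested.

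Hormone receptors and enzymes that act on steroids were higher in the adolescent sham arrays where they were called. THRB, the beta thyroid hormone receptor, read 0.68 and 0.68 on adolescent sham 2 and 3 and −1.40, −1.04 and −1.93 on the fetal arrays, 4.40-fold higher (2.14 ± 0.38, limma adjusted p = 0.000557). HSD11B1, which regenerates cortisol from cortisone, read −0.95 and −0.63 against −3.43, −2.38 and −3.81, 5.35-fold higher (2.42 ± 0.48, adjusted p = 0.00124). HSD11B2, which inactivates cortisol, lay higher at −4.55 and −3.20 against −5.54, −5.82 and −5.55, above background on 1 array of each group, and was not called (adjusted p = 0.0866). NR3C1, the glucocorticoid receptor, rose by 1.5 ± 0.51 (adjusted p = 0.034). Its call ended without any 1 of the 5 arrays (0.0506 to 0.153), and the sign turned to −0.72 with the brightness covariate. Of the 9 members of the steroid and thyroid list 4 rose and none fell, with a median of 1.13. The count was 2 without adolescent sham 2, adolescent sham 3 or fetal sham 3.

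AGTR2, the angiotensin receptor typical of fetal tissue, read −4.75 and −5.69 against −2.45, −2.64 and −3.44, above background on 1 adolescent array, 5.19-fold lower (−2.38 ± 0.42, limma adjusted p = 0.000455) with the sign turned to 0.45 under normexp. AGTR1, the receptor for most adult actions of angiotensin, read 0.47 and −0.70 against 0.54, 0.75 and 0.22 and was not called (−0.61, adjusted p = 0.252). NOS2, the inducible nitric oxide synthase, fell by 2.16 (adjusted p = 0.00534), ended without adolescent sham 3 (0.0766) and turned to 0.35 under normexp. GUCY1B1, a subunit of the nitric oxide receptor, fell by 1.85 (adjusted p = 0.00573), which ended without adolescent sham 2 (0.0525). In the list of renin-angiotensin, endothelin and adrenergic genes 1 of 17 rose and 5 fell, with a median of −0.17. The falls numbered 2 without adolescent sham 3 and 3 without adolescent sham 2 or fetal sham 1, and of the 5 ways to leave out 1 sham array the rise was called only without fetal sham 1.

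Collagens and other matrix genes fell or were not called. Of 14 members 7 fell, none rose, and the median was −1.36. COL5A2, a chain of the collagen that starts fibrils, read −1.16 and −1.49 against 1.08, 1.1 and 0.59, 4.75-fold lower (−2.25 ± 0.38, limma adjusted p = 0.000374). COL12A1, a fibril-associated collagen, read −1.05 and −2.68 against 0.18, 1.03 and 0.43, 5.33-fold lower (−2.41 ± 0.46, adjusted p = 0.000808). Both were called without each array in turn. COL3A1, a main fibrillar collagen of the heart, read 0.24 and 0.83 against 2.90, 3.72 and 2.02, 5.08-fold lower (adjusted p = 0.0229), and its call ended without adolescent sham 2 (0.129) or 3 (0.0679) or fetal sham 2 (0.0845). COL1A1, the main chain of stiff collagen, stood at −1.01 ± 0.55 and was not called (adjusted p = 0.185). BGN, the proteoglycan biglycan, fell by 1.61 (adjusted p = 0.00403, and 0.0542 without adolescent sham 3). CCN2, connective tissue growth factor, fell by 2.43 (adjusted p = 0.0127), and this ended without adolescent sham 2 (0.0702) or 3 (0.0617) or fetal sham 1 (0.0534). Only 2 of the 7 calls were left without adolescent sham 3, 3 without adolescent sham 2 and 4 without fetal sham 1 or 2. The 6 fibroblast markers, 3 of them in the matrix list too, summed to 149.9 and 184.5 on the adolescent sham arrays and 240.4 to 270.2 on the fetal ones, and their part in the matrix result was not tested.

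Among growth factor signals INHBA, the activin A chain, read −2.92 and −2.15 against 0.80, 1.69 and 0.59, 11.8-fold lower (−3.56 ± 0.51, limma adjusted p = 7.39e-05). TGFB2, a transforming growth factor of heart development, fell by 1.57 (adjusted p = 0.00877, and 0.0688 without adolescent sham 2), and its receptor TGFBR2 rose by 1.20 ± 0.23 (0.00102). SMAD7, an inhibitor of this pathway, fell by 1.67 ± 0.29 (adjusted p = 0.000428) with the sign turned to 0.11 under normexp. FGF2, a growth factor of muscle and vessel cells, rose by 1.62 ± 0.39 (adjusted p = 0.00464). MSTN, myostatin, was above background on no adolescent and 2 fetal sham arrays and was not called (0.22 ± 0.81). Of the 42 genes in the developmental list 6 rose and 6 fell, and the median, 0.17, matched that of all named genes. The rises numbered 2 without adolescent sham 3, and the falls 3 without fetal sham 1.

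EPAS1, a hypoxia-responsive transcription factor of endothelium, read −1.33 and −1.85 against −3.39, −3.71 and −3.95, 4.27-fold higher (2.09 ± 0.44, limma adjusted p = 0.00175). CXCR4, a chemokine receptor of vessel sprouting, was above background on neither adolescent array and at least 3.89-fold lower (adjusted p = 0.000127), and ANGPT2, which loosens vessels for growth, at least 3.88-fold lower (0.00387). Under normexp both signs turned, to 0.49 and 0.31. VEGFA, the main vessel growth factor, read 3.05 and 2.89 against 2.21, 1.75 and 1.45 and was not called (1.16 ± 0.60, adjusted p = 0.16). Of 8 endothelial markers 1 rose and 3 fell, with a median of −0.28. Without adolescent sham 3 none was called in either direction, and without any other 1 array 2 were called lower. PECAM1, an adhesion protein of endothelium, read 1.91 and 1.47 against 2.74, 2.99 and 2.51 (−1.05 ± 0.24, adjusted p = 0.00289, and 0.062 without adolescent sham 3). NR2F2, a transcription factor of atria and veins, fell by 1.48 ± 0.24 (adjusted p = 0.000219), above background on 1 adolescent array, with the sign turned to 0.31 under normexp.

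Red cell transcripts fell, with 3 of 5 measured markers called lower. HBBF, the fetal beta-like globin, read −4.37 and −5.42 on the adolescent sham arrays, 1 of them above background, and 5.15, 4.11 and 3.28 on the fetal sham arrays, 538-fold lower (−9.07 ± 0.63, limma adjusted p = 7.68e-08). The brighter HBB probe, annotated to beta-globin, read −1.75 and −1.57 against 7.91, 7.02 and 6.05, 403-fold lower (−8.65 ± 0.70, adjusted p = 3.40e-07). The dimmer HBB probe differed by −3.30 and was not called. Beta-like globin genes are near-identical copies, so which of them a probe read is uncertain. AHSP, the chaperone of free alpha-globin, read −2.63 and −5.31 against 1.93, 0.35 and −1.90, 17.1-fold lower (−4.10 ± 0.98, adjusted p = 0.0047), and its call ended without adolescent sham 3 (0.119). EPOR and CA1, the erythropoietin receptor and a red cell carbonic anhydrase, were not called (1.14 and −0.35). The 5 markers summed to 280.5, 148.7 and 76.5 on fetal sham 1, 2 and 3 and to 0.599 and 0.738 on the adolescent arrays.

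Cathelicidins, antimicrobial peptides of neutrophil granules, fell too. CATHL1B read −7.02 and −5.90 against 1.99, 0.71 and −1.36, at least 42.5-fold lower (limma adjusted p = 7.85e-05). BAC5 read −6.72 and −4.62 against 1.86, 0.85 and −1.16, at least 44.7-fold lower (adjusted p = 0.000398), and CATHL3 was at least 26.8-fold lower (0.000818). None was above background on an adolescent sham array. On the fetal arrays CATHL1B, BAC5 and CATHL3 read highest on fetal sham 1 and lowest on fetal sham 3. HBB, HBBF and AHSP had this order too, while EPOR, CA1 and the liver markers did not. Whether these transcripts share a source was not tested. SC5, another cathelicidin, was at least 10.7-fold lower (adjusted p = 0.013), which ended without adolescent sham 2 (0.0576) or 3 (0.0784) or fetal sham 1 (0.0585). The cathelicidins are a family of close copies, so their probes may share signal. The other neutrophil markers were not called. ITGB2, an integrin of all leucocytes, stood at 1.09 ± 0.79 (adjusted p = 0.321) and LTF, lactoferrin, at −2.30 ± 0.96 (0.0804). Of 6 markers 3 fell, with a median of −3.14, or −2.43 with members below background set at their bounds.

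T and NK cell genes rose. CD3E, a chain of the T cell receptor complex, read 0.91 and 1.47 on the adolescent sham arrays and −2.54, −1.90 and −2.79 on the fetal ones, 12.1-fold higher (3.60 ± 0.33, limma adjusted p = 9.63e-07). CD3D and CD3G, chains of the same complex, were 11.9-fold and 12.5-fold higher (adjusted p = 2.04e-06 and 3.47e-05). GNLY, a pore-forming protein of killer lymphocytes, read 0.12 and 2.31 against −5.59, −5.26 and −5.60, 104-fold higher (6.70 ± 0.69, adjusted p = 3.65e-06), while its 3 tested probes differed by 1.56 to 6.70. LCK, a kinase of T cell activation, rose by 1.42 (adjusted p = 0.0113), which ended without adolescent sham 3 (0.323). Adolescent sham 3 was above adolescent sham 2 in each of the 5 genes. Of the 9 T and NK cell markers 8 rose, with a median of 1.93, and 4 were called without adolescent sham 3. Their sum was 4.45 and 11 on adolescent sham 2 and 3 and 0.514 to 0.636 on the fetal sham arrays. Probes described as T cell receptor chains were above 0 in 16 of 17 cases, 6 of them called higher (35.3%, against 15.2% of all probes), and probes of this class resemble one another. Immunoglobulin probes were called higher in 4 of 49 cases (8.16%), a smaller share than the 15.2% of all probes, with 42 above 0. CR2, a complement receptor and the 1 B cell marker measured, read −3.42 and −1.76 against −5.0, −7.22 and −5.08 and was not called (3.18 ± 1.23, adjusted p = 0.0595).

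Antigen presentation genes changed in both directions. All 15 probes of MHC class I, which shows peptides to killer T cells, were above 0, with a median of 2.77. Of these probes 13 were called higher (86.7%, against 15.2% of all probes), but they read near-identical genes. OVAR-DRB1, a class II chain, read 1.67 and 2.10 against −1.13, −0.59 and −0.84, 6.67-fold higher (2.74 ± 0.42, limma adjusted p = 0.000169). OVAR-DRA, its partner chain, rose by 3.32 ± 1.1 (adjusted p = 0.0294), which ended without adolescent sham 3 (0.234), fetal sham 1 (0.0808) or fetal sham 3 (0.0539). OVAR-DQB1, a class II chain that varies between individuals, read −3.33 and −4.00 against 0.26, 1.36 and 1.29, 24.8-fold lower (−4.63 ± 1.63, adjusted p = 0.039). Its call ended without any 1 of the 5 arrays (0.0552 to 0.181), and remote muscle gave −0.27 (adjusted p = 0.91). Over the list 5 of 8 rose and 2 fell, with a median of 1.41. The rises numbered 2 without adolescent sham 3 and 3 without fetal sham 1, and of the falls none was called without adolescent sham 2 and 1 without any other array. Macrophage markers were mostly not called, 2 of 13 higher with a median of 0.78, none without adolescent sham 3 and 1 without fetal sham 1 or 3. FCGR2B, the inhibitory antibody receptor, rose by 2.69 (adjusted p = 0.0131, and 0.106 without adolescent sham 3). LYZ, lysozyme, stood at 2.00 ± 0.92 (adjusted p = 0.11), and at 2.42 with the slide as a block (0.0216).

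Among signals between immune cells XCL1, a chemokine made by T and NK cells, read 0.18 and 0.79 against −1.71, −1.97 and −2.24, 5.50-fold higher (2.46 ± 0.43, limma adjusted p = 0.000422). TNF, a cytokine of inflammation, rose by 2.34 (adjusted p = 0.0039, and 0.0673 without adolescent sham 3). MIF, a cytokine that many tissues store, read 3.40 and 3.29 against 5.32, 5.44 and 4.90, 3.67-fold lower (−1.88 ± 0.31, adjusted p = 0.000277). IL1A, an alarm cytokine, was above background on neither adolescent array, at least 3.32-fold lower (adjusted p = 0.00333), with the sign turned to 0.67 under normexp. Of 17 cytokine genes 4 rose and 2 fell, with a median of 0.61, and 2 rose without adolescent sham 2 or 3. T and NK cell marker sums, given above, were higher on both adolescent arrays, and their part in the rises of XCL1 and TNF was not tested.

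EEF1A1, the elongation factor that brings transfer RNA to the ribosome, read 3.03 and 3.06 against 5.37, 5.22 and 5.37, 4.86-fold lower (−2.28 ± 0.24, limma adjusted p = 4.58e-06). The list of ribosomal and translation genes as a whole had a median of 0.10, with 5 of 27 lower and none higher. This count was 16 with quantile normalization, 2 without adolescent sham 3 and 3 without adolescent sham 2. Genes of defence against oxidants were higher in adolescent sham where they were called. SOD1 and SOD2, the cytosolic and mitochondrial superoxide dismutases, rose by 1.03 ± 0.22 and 1.79 ± 0.41 (adjusted p = 0.00212 and 0.00334), and GSTM3, a glutathione transferase, by 2.41 ± 0.41 (0.000336). FTH1, the ferritin heavy chain, stood at 0.76 (adjusted p = 0.0266), at −0.23 after quantile normalization (0.25) and at −0.71 for the authors' deposited values (0.00444). Its call ended without adolescent sham 3 (0.197) or fetal sham 2 (0.0644) or 3 (0.0765). Of 9 members 4 rose and none fell, with a median of 0.76.

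Remote muscle of the ligated hearts gave an age difference whose group means came from arrays outside the sham groups. Both comparisons took the spread of each probe from the same fit to all 23 arrays, so their calls are not independent. There 3882 of 12454 probes were called (31.2%), with 150 of 897 named genes higher (16.7%) and 135 lower (15.1%). Of the 3727 probes called between the shams 2515 were called in remote muscle too, 2513 with the same sign, which is 67.4% of the sham calls and 64.7% of the remote calls. Across the 12454 probes the age differences correlated at 0.797, as a description of probes read on the same slides. TUBA4A stood at 3.51 in remote muscle against 4.59 in sham, IGF2 at −3.69 against −3.33, and CDK1 at −3.14 against −3.57. SLC2A4 was at 3.04 against 3.28, THRB at 1.44 against 2.14, CD3E at 3.14 against 3.60 and HBBF at −9.30 against −9.07. Liver markers stood apart, with a median of 0.22 in remote muscle and 1 of 12 called, SERPINC1 at −1.59.

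The difference between the age effects was tested directly. It was called for 1 of 12454 probes (0.00803%), which had no name, and for none of the 897 named genes in limma, with 865 probes and 46 named genes at an unadjusted p under 0.05. CCNA2 fell by 5.26 in sham and by 2.69 in remote muscle, TYMS by 3.97 and 1.72, and CCNB1 by 3.16 and 1.55. None of these differences was called, nor was that of AHSG, fitted at −9.32 in sham and 1.89 in remote muscle. CCNA2, TYMS and AHSG were not well above background on either adolescent sham array, so their sham values are those of the fit and not measured sizes. A difference that misses the threshold does not show that the age effects are alike.

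**Figure D4:**
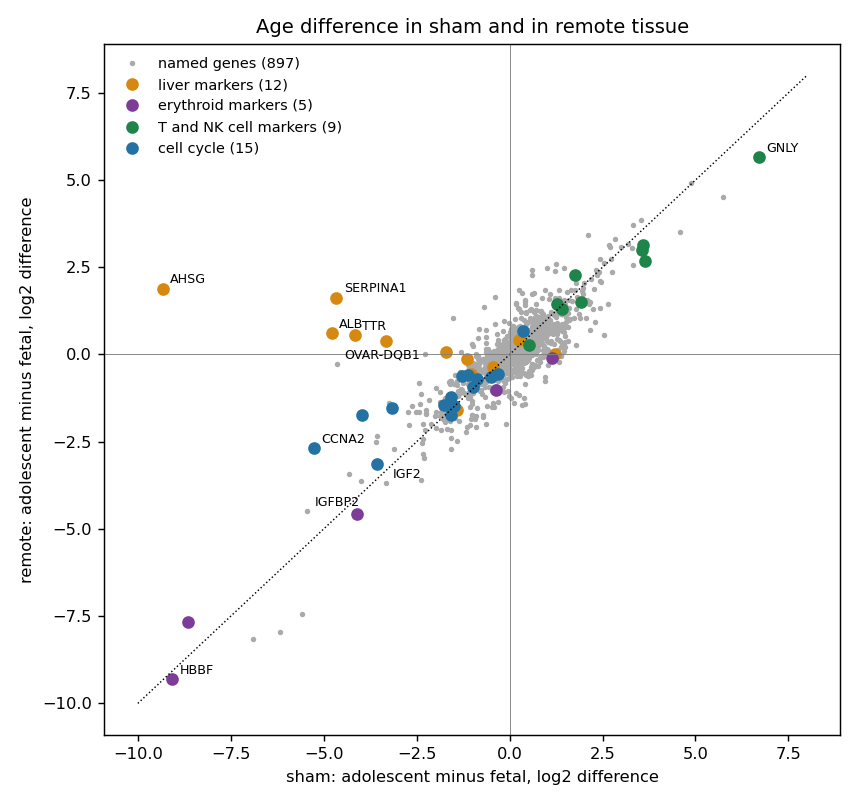
Log2 difference between adolescent and fetal arrays in sham tissue (x axis) and in remote muscle (y axis) for the 897 named genes, 1 point each, with the line of equal values dotted. HBBF and IGFBP2 lie within 1 of the line, and AHSG, ALB, SERPINA1 and TTR lie left of it, at fitted values of −4.17 or below in sham, with no adolescent sham array well above background, and above 0 in remote muscle.

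The level of a few genes across all 8 groups places the sham arrays among the ligated tissue, as values side by side. IGF2 held means of 7.44 to 7.61 in the 4 fetal groups and 2.91 to 4.12 in the 4 adolescent groups, with adolescent infarct lowest and adolescent sham highest of its age. CDK1 averaged −3.93 in adolescent sham and −4.15 in adolescent remote muscle, and −0.70 and 0.52 in adolescent border and infarct, against −1.01 to 0.50 in the fetal groups. SLC2A4 averaged 4.89 in both adolescent sham and remote muscle, 3.24 in the border and −2.04 ± 1.71 (SD, n = 3) in the infarct, below the 1.61 ± 0.71 (SD, n = 3) of fetal sham. TUBA4A stood at 3.01 in adolescent sham and −1.35 in adolescent infarct, beside −1.58 in fetal sham. THRB went from 0.68 in adolescent sham to −2.45 in adolescent infarct, with fetal groups at −2.15 to −1.37. HBBF was at 3.34 to 4.29 in every fetal group, and its highest adolescent mean was −1.64 in the border. AHSG averaged 3.34 ± 3.60 (SD, n = 3) in fetal sham and −6.95 to −4.09 in the other 7 groups.

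**Figure D5:**
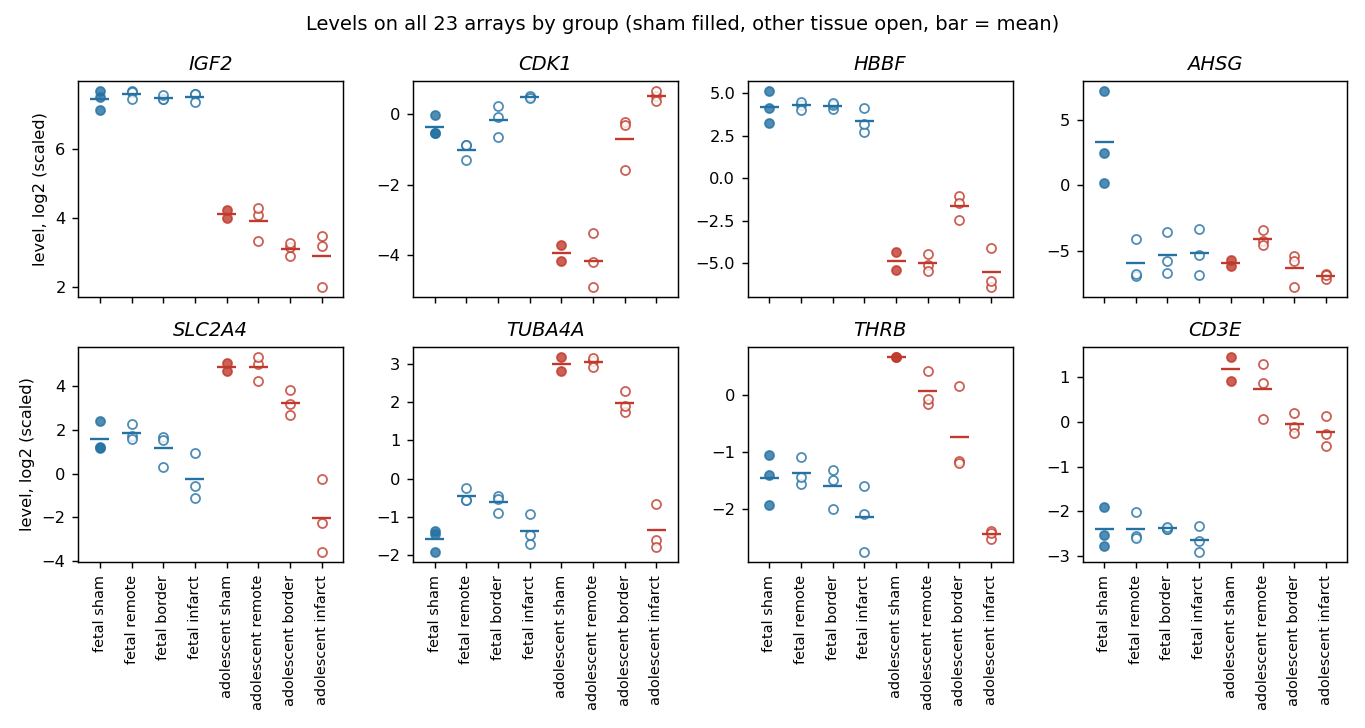
Levels of 8 genes (1 panel each, y axis log2 signal minus the 75th percentile of the array) on all 23 arrays by group (x axis), sham filled and other tissue open, with bars at group means. AHSG is above 0 only in fetal sham, and CDK1 lies at −3.93 on average in adolescent sham and at 0.52 in adolescent infarct.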

How the data were processed

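The members of the comparison and the gene and marker lists were chosen with earlier results of these data known. The deposited scanner files hold intensity values, background-subtracted and detrended on each array and not normalized between arrays, written by Feature Extraction (version 10.1.1.1) per the file headers. The authors also deposited a table of 8411 probes in log2, normalized between arrays in a way not given in the sources used here, which served as an alternative. The submitters' processing notes name limma without a version. The series text gives another array design and scanner than the file headers do.

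Control spots and outlier spots were left out, the spots of a probe were averaged, and the 75th percentile of log2 intensity was subtracted on each array, with no pseudocount. A limma model (R 4.3.3, limma 3.58.1) with 8 groups gave each comparison as a contrast, with two-sided p-values. The fit was tested on simulated data with known changes and independent noise. Those data held no differences in array brightness, slide or background, so the test does not bear on them. With adolescent sham at 2 arrays, leaving out 1 made the lone array vary like the other groups by assumption. Alternatives were median scaling, quantile normalization, normexp with an offset of 50, the deposited values, other filters, sham arrays alone, the slide as a block, array brightness, array weights and leaving out arrays.

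Named were the 12 highest and 12 lowest fold changes among called genes without overlap of the groups, up to 5 members of each list by moderated t, all measured liver and erythroid markers and a fixed set of genes. Called genes outside these are given by count and range, and 2 genes that the rule took are not reported here by name. Probe names came from accessions, symbols, gene IDs and descriptions in the files and from RefSeq's gene table. For 9 probes these sources conflicted, and no name was given. Where no array of a group was above background, the fold is a bound, written "at least", with each of its arrays raised to the dimmest probe that counted as well above background there. Whether same-numbered sham arrays deviate together was checked on slides 2 and 3, and their correlations were 0.245 and 0.0775. Those are too few pairs to take the numbers as pairing.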

Additional observations from a re-analysis of the deposited data

Results flagged for a closer look

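A single probe, A_70_P034826, which has no name here, had an age difference that differed between sham and remote muscle by the test of that difference (−1.83 ± 0.26, limma adjusted p = 0.0172). It read −5.40 and −5.77 on the adolescent sham arrays, above background on neither, and −4.96, −5.25 and −5.15 on the fetal sham arrays (−0.46, adjusted p = 0.0775). In remote muscle it read −3.99, −3.61 and −4.01 in adolescents and −5.27, −5.26 and −5.18 in fetuses (1.37 ± 0.17, adjusted p = 2.06e-05). With groups of 2 and 3 arrays, no search for single outlying arrays was made.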

How the results depend on the processing

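The count of 3727 probes between the shams became 3678 with median scaling (2094 higher, 1584 lower), 4014 with quantile normalization, 3024 of 8411 in the deposited values, 4205 without a filter and 3262 of 8890 for probes above background on all 5 sham arrays. It was 3561 with array weights, 2429 with the sham arrays alone, 503 with the brightness covariate (39.8% of them higher, against 50.7%), 90 with normexp (36.7% higher) and 1566 without fetal sham 1 and 3. Leaving out 1 array gave 2086 to 3232. Normexp moved the median of all probes to 0.53, against 0.07. Replicate numbers are slides, and fitted with the slide as a replicate block, 4000 probes were called (2076 higher, 1924 lower); of the 118 calls of named genes it ended 2, PGR and TTR. The remote count was 491 with normexp and 2939 to 3383 leaving out 1 array. The 1 probe called in the difference between the age effects was called with no filter, the block and array weights, and 0 were called with median scaling, quantile normalization, normexp, the deposited values, the stricter filter, the brightness covariate and without fetal sham 1 and 3; leaving out 1 array gave 0 to 8. Signs turned under normexp for AGTR2 (0.45), ANGPT2 (0.31), ASPM (0.073), CXCR4 (0.49), IL1A (0.67), NOS2 (0.35), NR2F2 (0.31), PTX3 (0.95), SERPINC1 (0.75), SMAD7 (0.11) and TIE1 (0.15). They turned with the brightness covariate for FTH1 (−0.10), NR3C1 (−0.72) and TEK (−0.060), in the deposited values for ATP5MC1 (−0.11) and FTH1 (−0.71), and with quantile normalization for FTH1 (−0.23). The cause was not tested. Of the 118 calls 34 ended without adolescent sham 2, 50 without adolescent sham 3 and 16 to 19 without a fetal sham array. Signal over background was the limit for 24 genes called lower that were above background on no adolescent sham array and 4 called higher on no fetal one, whose folds are bounds at most. All 4 of AHSG, ALB, SERPINA1 and TTR are among the 24.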

Other observations

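Among called probes without a name and without overlap of the groups, those with the largest rises and falls follow. They were picked as extremes and do not stand for unnamed probes in general. A_70_P031786 read 3.31 and 3.15 on the adolescent sham arrays and −3.90, −5.06 and −5.79 on the fetal ones, 283-fold higher (8.14 ± 0.51, limma adjusted p = 3.40e-08), and differed by 6.92 in remote muscle. A_70_P023026 was above background on no fetal sham array and at least 48.5-fold higher (adjusted p = 1.52e-06), with 6.28 in remote muscle. A_70_P061026 read −4.95 and −5.46 against 0.37, 0.62 and 1.38, at least 39.8-fold lower (adjusted p = 1.33e-07), with −3.00 in remote muscle. A_70_P040341 was at least 20.3-fold lower (adjusted p = 0.00461). It read 3.39, −4.33 and −0.93 on fetal sham 1, 2 and 3, the order of most liver markers, and differed by 0.56 in remote muscle (0.780). Its source was not tested.

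SFTPA1, a surfactant protein of lung, rose by 1.41 ± 0.35 (adjusted p = 0.00564), and SFTPB, SFTPC and SFTPD were not called. F8, coagulation factor VIII, read −1.66 and −1.94 against −4.04, −3.41 and −4.45, 4.50-fold higher (2.17 ± 0.44, adjusted p = 0.00142). WT1, a transcription factor of the epicardium, fell by 1.59 ± 0.42 (adjusted p = 0.00848), a call that ended without adolescent sham 3 (0.116). The 5 measured skeletal muscle markers had no call, nor had the 3 neural ones.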
